A study of Rattus norvegicus with 30 samples.

Results

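The comparison described here is between primary rat hepatocytes exposed to 1 µM beta-naphthoflavone (BNF) for 48 h and the same kind of culture exposed for 24 h. It rests on 10 of the study's 30 arrays, 5 titled 48 h and 5 titled 24 h at 1 µM, chosen by their titles alone. The other groups used are BNF at 100 µM for 48 h and for 24 h, and vehicle, 1% dimethyl sulfoxide (DMSO), for 48 h and for 24 h, with 5 arrays each. All groups were frozen hepatocytes of male Sprague Dawley rats, thawed, plated on collagen under a Matrigel overlay and dosed on the third day of culture, so that every 48 h well had also spent a further day in culture than every 24 h well. No array before dosing was used here. Each array came from its own culture well. The labels do not tie wells to animals or cell lots, so the p-values below measure the spread between wells.

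BNF is a synthetic flavonoid that binds the aryl hydrocarbon receptor (AhR). Bound AhR moves to the nucleus, pairs with Arnt and activates genes whose regulatory DNA holds the core GCGTG, among them the Cyp1 family of P450 enzymes, whose products can in turn oxidise the ligand. Hepatocytes in culture are also known to lose much of their liver-specific expression over days, with or without a compound, and the vehicle wells give that time change without BNF.

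Promoter windows are shown for the 3 AhR target genes that were lower at 48 h and had a window in the RefSeq table (build GRCr8). Each window runs from 250 bases before to 50 after the start, 5′ to 3′ on the gene's strand. Capitals mark GCGTG or its reverse complement CACGC, the only motif searched, on both strands.
Tiparp, chr2:152063519-152063818, plus strand: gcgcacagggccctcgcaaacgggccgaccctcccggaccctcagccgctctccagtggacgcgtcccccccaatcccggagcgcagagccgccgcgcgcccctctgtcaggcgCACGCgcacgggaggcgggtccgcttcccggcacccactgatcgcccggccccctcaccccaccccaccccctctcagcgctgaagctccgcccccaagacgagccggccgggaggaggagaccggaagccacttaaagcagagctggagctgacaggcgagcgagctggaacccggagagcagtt
Nqo1, chr19:52220218-52220517, minus strand: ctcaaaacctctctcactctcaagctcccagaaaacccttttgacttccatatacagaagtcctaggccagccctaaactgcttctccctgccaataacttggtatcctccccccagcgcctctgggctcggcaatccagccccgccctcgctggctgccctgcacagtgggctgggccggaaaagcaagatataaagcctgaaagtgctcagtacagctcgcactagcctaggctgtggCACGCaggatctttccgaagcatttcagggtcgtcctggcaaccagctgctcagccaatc
Cyp1a2, chr8:66978100-66978399, minus strand: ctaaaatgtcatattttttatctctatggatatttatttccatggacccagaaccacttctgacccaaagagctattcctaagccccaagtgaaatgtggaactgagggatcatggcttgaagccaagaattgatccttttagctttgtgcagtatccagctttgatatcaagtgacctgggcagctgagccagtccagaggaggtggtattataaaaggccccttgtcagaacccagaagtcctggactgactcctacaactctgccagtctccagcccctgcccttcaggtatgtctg
The Tiparp and Nqo1 windows held 1 match each and the Cyp1a2 window held 0. Of the windows of all genes tested, 44.4% held at least 1 match. Windows were found for 6 of the 8 measured AhR targets. Of those not shown, Ahrr held 3 matches, Cyp1b1 2 and Cyp2s1 0, and none of these genes was called.

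Signals are linear intensities, compared as log2 values, and a gene was called when its adjusted p in limma was under 0.05. Between 48 and 24 h at 1 µM, 1926 of 14217 genes were called (13.5%), with 970 higher (6.82%) and 956 lower (6.72%) at 48 h. The median called gene differed 1.275-fold, and 137 genes were called and differed at least 2-fold, 61 of them higher and 76 lower. The 5 arrays at 48 h did not overlap with the 5 at 24 h for 1593 genes (11.2%), of which 1340 were called. Centring each array on its median left 1236 genes called, 574 higher and 662 lower. No array measure differed between the groups by its test: in the 5 measures, such as median signal and the 3′ minus 5′ control difference, the adjusted p was 0.929 (two-sided exact permutation tests, 5 against 5, smallest possible unadjusted p 0.00794).

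The cells carried a hepatocyte profile. All 9 measured hepatocyte markers lay above the median gene in mean signal, from percentile 78.9 for Cyp2e1 to percentile 99.9 for Alb. The hepatocyte median was percentile 99.4. Median percentiles were lower for markers of Kupffer (43.7), stellate (26.5) and endothelial cells (21.1), cholangiocytes (23.5) and lymphocytes (15.4). Some of these markers still lay above the median gene: 7 of 16 Kupffer, 2 of 17 stellate, 1 of 12 endothelial, 2 of 9 cholangiocyte and 0 of 12 lymphocyte markers. Cd14 of Kupffer cells (percentile 93.6) and Epcam of cholangiocytes (92) were above Cyp2e1. No marker had a value at 0.

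Some AhR targets were lower on the second day and none was called higher. The share called lower was 50%, against 6.72% of all genes. Of 8 measured members, 4 were called lower (Cyp1a1, Cyp1a2, Tiparp and Nqo1), 0 were called higher (0 also at an unadjusted limma p under 0.05), and the median log2 fold change was -0.27, against 0.01 over all genes. In vehicle wells 2 of the 8 were called lower, Cyp1a2 and Tiparp. For 0 members was the difference of the time change between BNF and vehicle wells called, and for 4 its unadjusted limma p was under 0.05. These 4 did not share a direction: Cyp1a2 fell less with BNF than in vehicle, while Cyp1a1, Tiparp and Nqo1 were more negative with BNF.

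Cyp1a1, the P450 most used as a marker of AhR activity, had signals of 14997, 27250, 19856, 24113 and 26819 in the 48 h arrays and 39415, 42694, 46765, 47544 and 44084 in the 24 h arrays. Every 48 h array was below every 24 h array, and the first was the lowest of all. The log2 fold change was -0.99 ± 0.2 (SE), a 1.99-fold lower level at 48 h (adjusted p = 0.000654). In vehicle, Cyp1a1 averaged 9525 ± 4287 at 48 h and 11832 ± 3140 at 24 h (SD, n = 5 each), a log2 fold change of -0.37 that was not called (adjusted p = 0.236). The BNF wells were above the vehicle means at both times, at 22607 ± 5173 at 48 h and 44100 ± 3275 at 24 h. The time change at 1 µM minus that in vehicle was -0.62 on the log2 scale (95% interval -1.2 to -0.04, adjusted p = 0.493), so the data do not show a difference between them after adjustment.

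Cyp1a2, the second hepatic Cyp1 enzyme, had signals of 6354, 8875, 6503, 7250 and 7437 at 48 h and 19703, 20016, 18068, 17823 and 16782 at 24 h. The groups were far apart, with no array in between. Its log2 fold change was -1.35 ± 0.11 (adjusted p = 2.41e-10) at 1 µM and -1.83 ± 0.11 in vehicle, where the level was 3374 ± 601 at 48 h and 11930 ± 1353 at 24 h. Tiparp, an ADP-ribosyltransferase that AhR induces and that represses AhR in turn, had 2697, 2808, 3043, 2604 and 3048 at 48 h and 4928, 4701, 4663, 4591 and 4265 at 24 h. These groups did not overlap either, and the log2 fold change was -0.71 ± 0.08 (adjusted p = 5.7e-08), against -0.48 ± 0.08 in vehicle.

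Nqo1, a quinone reductase under both AhR and NRF2, changed least of the 4. It had 43365, 41881, 41431, 44211 and 43585 at 48 h and 49238, 48013, 52172, 50865 and 51072 at 24 h. All 48 h arrays were below all 24 h arrays, and the log2 fold change was -0.23 ± 0.07 (adjusted p = 0.0185). With arrays centred on their median the call was lost (adjusted p = 0.0973). In vehicle its log2 fold change was 0.01. The other members were not called: Cyp1b1 had a log2 fold change of 0.15, Aldh3a1 of -0.31, Ahrr, the AhR repressor, of -0.13, and Cyp2s1 of -0.12. Aldh3a1 and Ahrr had low mean signals, at or below percentile 23.1 of all genes, and their arrays overlapped. Ahrr's direction was not settled, since it ranged from -0.43 to 0.36 over single arrays left out (lowest without array 4 of 48 h, highest without array 5 of 48 h). Of 8 genes for AhR itself and its partners 0 were called in limma, and 1 was higher at an unadjusted p under 0.05.

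**Figure D1:**
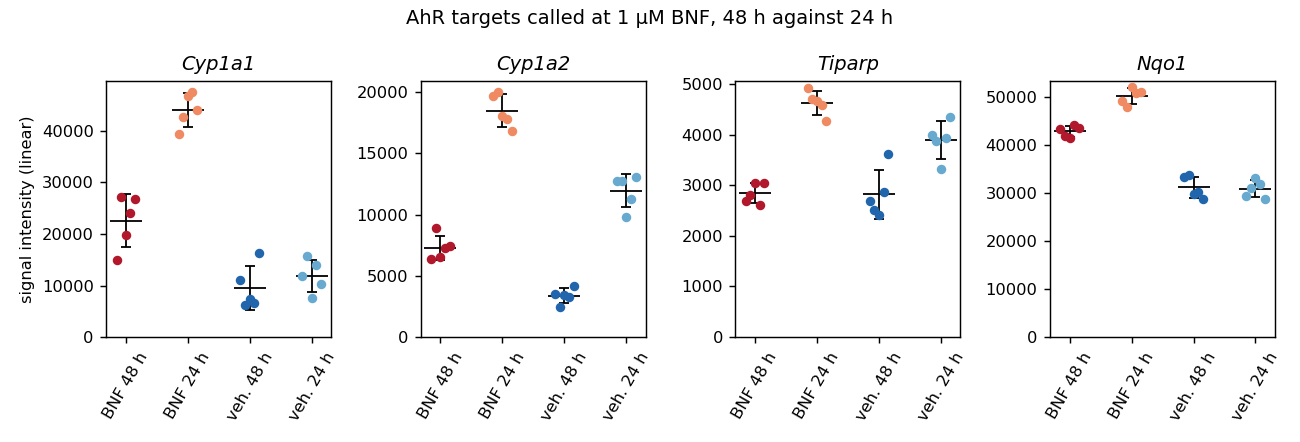
Signal intensity (linear) of the 4 AhR targets called at 1 µM, by array: points are arrays, black bars the mean and SD of 5. For Cyp1a1 the BNF arrays at 48 h lie between 14997 and 27250, below those at 24 h, while the vehicle groups overlap.

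Targets of other xenobiotic receptors and a list of P450 enzymes headed sex-dependent were mostly lower at 48 h. Of 11 measured targets of CAR and PXR, the nuclear receptors that regulate drug metabolism, 8 were called lower and 1 higher. The share called lower was 72.7%, against 6.72% of all genes. Of 13 P450s on the list headed sex-dependent, 8 were lower (61.5%) and 1 higher, with a median log2 fold change of -0.82. That list also holds P450s not usually classed as sex-dependent, among them Cyp2e1 (-1.43), Cyp2c23 (-1.24) and Cyp2d2 (-0.82), which were called lower. Both lists had nearly the same counts in vehicle, 8 lower and 1 higher and 9 lower and 0 higher.

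Cyp2c13, a P450 of male rats, had 1788, 1715, 1484, 1464 and 1404 at 48 h and 7236, 10219, 9890, 8119 and 7580 at 24 h, with no overlap. The difference was 5.45-fold (log2 fold change -2.45 ± 0.13, adjusted p = 7.42e-15), and its probe set carries a suffix that marks sequence shared with other genes. Cyp3a2, another P450 of male rats, had 1313, 913, 1079, 1257 and 714 at 48 h and 4520, 5322, 5501, 4278 and 4044 at 24 h. Every 48 h array was below every 24 h array, at a log2 fold change of -2.19 ± 0.16. Cyp2c11, the main P450 of the adult male rat liver, averaged 1600 ± 368 at 48 h and 5071 ± 570 at 24 h, and Cyp2e1, which oxidises ethanol, 2371 ± 238 and 6354 ± 292. Each of these was also called lower in vehicle, with log2 fold changes of -2.06, -2.07, -1.82 and -1.43. Cyp2c12 and Cyp2c7 of the same list, named after their values were seen, were called lower at 1 µM and in vehicle too. Cyp2c12 had the largest log2 fold change of the list at 1 µM (-2.98), at a mean signal of percentile 24.4, and Cyp2c7 had -1.13.

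Cyp2a1 ran the other way. It was named after its values were seen, as the only member of its list called higher. Its signals were 8736, 8638, 7635, 8308 and 7976 at 48 h and 6673, 6984, 5624, 6622 and 6310 at 24 h, with no overlap. The log2 fold change was 0.36 ± 0.06 (adjusted p = 9.71e-05), against 0.07 in vehicle, where the means were 3472 at 48 h and 3287 at 24 h. The difference of 0.29 (95% interval 0.11 to 0.47) did not pass (adjusted p = 0.249). Among the transport and conjugation genes, Abcb1a, a drug efflux pump, was higher (0.78 ± 0.11) and Ugt2b1, a glucuronosyltransferase, lower (-1.25 ± 0.11). Of 22 phase II genes 6 were lower (27.3%, against 6.72% of all genes) and 1 higher. The sulfotransferase Sult1c2 rose (1.21 ± 0.21) while Sult1c3 fell (-1.54 ± 0.25).

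Genes for proteins that hepatocytes secrete were mostly lower, with 57.1% called lower against 6.72% of all genes. Of 28 measured, 16 were called lower and 0 higher (0 also at an unadjusted limma p under 0.05), with 15 lower in vehicle. Hrg, a plasma glycoprotein, had 1695, 1682, 1490, 1491 and 1311 at 48 h and 4211, 4824, 4359, 3827 and 3794 at 24 h. The 2 sets did not overlap, at a log2 fold change of -1.45 ± 0.08 (adjusted p = 3.57e-14). Apoa2, an HDL apolipoprotein, averaged 9757 ± 1144 at 48 h and 24574 ± 2833 at 24 h, and Plg, plasminogen, 7552 ± 692 and 16879 ± 1064. Complement genes had 6 lower (37.5%) and 1 higher of 16, with C8g at -0.98 and C6 at -0.98. Serpina6, the corticosteroid-binding globulin, fell 3.3-fold, and Afm, afamin, 2.82-fold.

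More genes of nutrient metabolism were called lower than higher. The share called lower was 44.1% for urea cycle and amino acid genes, 28.6% for bile acid genes and 30.8% for glucose genes. Over all genes tested it was 6.72%. Of 34 genes of the urea cycle and amino acid catabolism, 15 were lower and 2 higher, with 19 lower and 1 higher in vehicle. Tdo2, the tryptophan dioxygenase, averaged 31867 ± 2286 at 48 h and 45529 ± 3007 at 24 h, and Cdo1, the cysteine dioxygenase, was among the 2 that were higher, at 37918 ± 4466 and 27200 ± 1565. Of 21 bile acid genes 6 were lower and 1 higher. Slc10a1, which takes bile acids up from blood, had 479, 587, 641, 383 and 409 at 48 h and 1511, 1990, 1653, 1292 and 1160 at 24 h. No array overlapped, and the log2 fold change of -1.61 ± 0.16 stood beside -2.23 ± 0.16 in vehicle. Of 13 glucose and glycogen genes, 4 were lower and 1 higher: Pck1, the first step of gluconeogenesis, fell (-0.88 ± 0.19), and Gys2, liver glycogen synthase, rose (0.61 ± 0.12). Hsd17b2, a steroid dehydrogenase, averaged 693 ± 76.3 at 48 h and 2213 ± 131 at 24 h at 1 µM, a log2 fold change of -1.68 against -1.07 in vehicle (difference -0.61, adjusted p = 0.27).

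Lipid genes divided. Fatty acid and triglyceride synthesis had 8 higher and 5 lower of 23, fatty acid oxidation and PPARA targets 7 higher and 7 lower of 27, and cholesterol synthesis 5 higher and 3 lower of 19. Cd36, a fatty acid uptake receptor, had 2527, 2634, 2778, 2563 and 2490 at 48 h and 898, 711, 846, 1072 and 1013 at 24 h. These groups were well separated, with a log2 fold change of 1.53 ± 0.13 at 1 µM and 1.64 ± 0.13 in vehicle. Cidec, which enlarges lipid droplets, rose 2.29-fold and Soat1, which esterifies cholesterol, 3.07-fold. Acot2, a mitochondrial acyl-CoA thioesterase, averaged 22083 ± 1345 at 48 h and 12332 ± 1035 at 24 h, and Cyp4a1, a fatty acid hydroxylase, 5872 ± 725 and 3110 ± 342. In vehicle their log2 fold changes were 0.83 and 0.64. Fads1, the delta-5 desaturase, rose by 1.2 ± 0.15 and Dgat1, which completes triglyceride synthesis, by 0.44 ± 0.06. In cholesterol synthesis Sqle, squalene epoxidase, rose (0.43 ± 0.09) and Ebp, a sterol isomerase, fell (-0.49 ± 0.07). Pdk4, which restrains pyruvate oxidation, fell (-1.27 ± 0.08), as did Scd, the stearoyl-CoA desaturase (-0.81 ± 0.09), while Insig1, a brake on sterol synthesis, rose (0.6 ± 0.04).

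In the endoplasmic reticulum stress and heat shock lists every called gene was higher, while the interferon and acute phase lists moved both ways. The share called higher was 51.7% for endoplasmic reticulum stress and 33.3% for heat shock, against 6.82% of all genes. For interferon and acute phase genes 52.4% and 47.8% were called in either direction, against 13.5% of all genes. Of 29 genes of the endoplasmic reticulum stress and amino acid response, 15 were called higher and 0 lower (0 also at an unadjusted limma p under 0.05), with a median log2 fold change of 0.18. In vehicle 17 were higher and 1 lower. Ddit3, a stress-induced transcription factor, averaged 15337 ± 1639 at 48 h and 10464 ± 292 at 24 h, and Sesn2, a stress-induced regulator of mTORC1, 5548 ± 510 and 3370 ± 396. All 4 heat shock genes called of 12 were higher, from 0.38 for Hspa1a and Dnajb1 to 0.6 for Hspa4. At an unadjusted limma p under 0.05, 6 were higher and 1 lower, and in vehicle 6 were called higher and 0 lower. Of 21 interferon genes 5 were higher and 6 lower: Gbp2 rose (1.54 ± 0.18) and Psmb8, an immunoproteasome subunit, rose (0.91 ± 0.09), while Ifitm3 fell (-0.62 ± 0.08). Acute phase genes had 3 higher and 8 lower of 23, with A2m at -1.19 and Lbp at 0.71.

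Oxidative stress genes divided evenly: of 18 NRF2 targets 5 were higher and 5 lower, with 7 and 5 in vehicle. The share called at 1 µM was 55.6%, against 13.5% of all genes. Hmox1, heme oxygenase, averaged 28485 ± 2310 at 48 h and 22260 ± 751 at 24 h, while Gsr, glutathione reductase, averaged 7065 ± 539 and 9988 ± 1799. Of 15 p53 targets 4 were higher and 1 lower, with 33.3% called. The kinase Plk2 rose by 0.41 ± 0.05, and Sesn1, a sestrin, fell by 0.93 on the log2 scale with an SE of 0.14. Another Sesn1 probe set had -0.34 and was not called (limma adjusted p = 0.18).

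Regulators of liver identity changed in part. Of 20 liver-enriched transcription factors 1 was higher and 4 lower, with 2 and 8 in vehicle. The share called at 1 µM was 25%, against 13.5% of all genes. Creb3l3, a membrane-bound factor of liver and intestine, averaged 8623 ± 345 at 48 h and 5388 ± 319 at 24 h, at 0.68 ± 0.05, against 0.34 in vehicle. This difference was not called (limma adjusted p = 0.0588). Lower were Cebpa (-0.33 ± 0.06), Nr1i3, which encodes the receptor CAR (-0.87 ± 0.2), and Foxa1 (-0.84 ± 0.22), which opens liver chromatin. Of 14 glucocorticoid response genes 1 was higher and 4 lower, with 35.7% called. The kinase gene Sgk1 had 0.4 ± 0.08 with BNF and 0.1 in vehicle, and Lpin1, a phosphatidate phosphatase, -0.7 and -0.81. Neither difference from vehicle was called (limma adjusted p = 0.374 and 0.887).

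Structural genes moved both ways. Of the cytoskeleton and dedifferentiation list 35.3% was called and of the extracellular matrix list 26.7%, against 13.5% of all genes. Of 34 cytoskeleton and dedifferentiation genes 6 were higher and 6 lower, with Tagln2, an actin-binding protein, at 0.55 ± 0.07 and S100a6, a calcium-binding protein, at -0.51 ± 0.07. Extracellular matrix genes had 4 higher and 4 lower of 30. Fn1, fibronectin, averaged 23772 ± 574 at 48 h and 31981 ± 940 at 24 h, and Ccn2, a matricellular protein that TGF-beta induces, 3726 ± 432 and 5773 ± 560. Of 19 glycolysis and hypoxia genes 3 were higher and 0 lower (1 lower at an unadjusted limma p under 0.05). The share called was 15.8%, against 13.5% of all genes in either direction and 6.82% called higher. The glucose transporter Slc2a1 was among the 3 that were higher, at 0.64 ± 0.11.

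Oxidative phosphorylation and cell cycle genes were called about as often as all genes in either direction (13.5%), at 15% and 13.3%. Every called oxidative phosphorylation gene was lower, and of all genes 6.72% were called lower. Of 22 cytosolic ribosomal protein genes 0 were called in limma (9 lower at an unadjusted p under 0.05). Of 20 oxidative phosphorylation genes 3 were lower (6 lower and 0 higher at an unadjusted limma p under 0.05). Of 30 cell cycle genes 3 were higher and 1 lower. The 3 oxidative phosphorylation genes, the subunit genes Ndufa4 (-0.21), Sdha (-0.14) and Cox4i1 (-0.15), were near the threshold. Ndufa4 lost its call without array 1, 3 or 5 of 24 h or any but array 1 of 48 h (highest adjusted p 0.129). Sdha lost it without array 1, 2 or 3 of 24 h or 1, 4 or 5 of 48 h (highest 0.103), and Cox4i1 without array 1, 2 or 3 of 24 h or 3 or 5 of 48 h (highest 0.157). Among the cell cycle genes, Cdk4, a G1 kinase, rose by 0.29 ± 0.08 and Pcna, the replication clamp, by 0.16. With arrays centred on their median the Pcna call was lost (adjusted p = 0.162). Mcm7 (0.35) and Mcm6 (-0.54), subunits of the replicative helicase, had less stable calls. Mcm7 lost its call without array 2 of 24 h or 1 or 3 of 48 h (highest adjusted p 0.13), and Mcm6 without array 1, 3 or 4 of 24 h or 2, 4 or 5 of 48 h (highest 0.109).

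**Figure D2:**
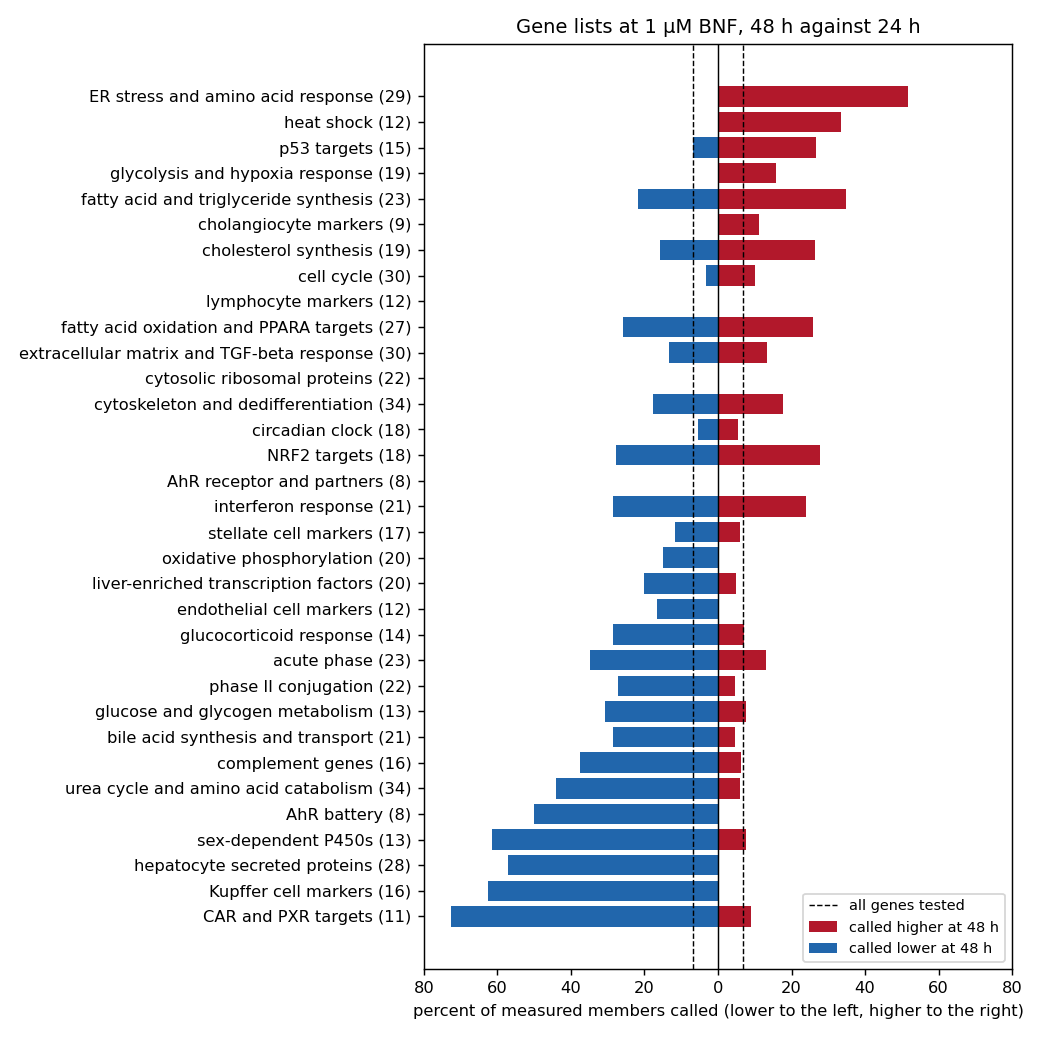
Percent of measured members (in brackets) of each gene list called lower (left) and higher (right) at 48 h against 24 h at 1 µM, with dashed lines for all genes tested. CAR and PXR targets reach furthest to the left, with 8 of 11 lower, and stress response genes furthest to the right, with 15 of 29 higher.

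Markers of Kupffer cells, the macrophages of the liver, were lower at 48 h. The share called lower was 62.5%, against 6.72% of all genes. Of 16 measured, 10 were called lower and 0 higher (0 also at an unadjusted limma p under 0.05), with a median log2 fold change of -0.57, and 7 were lower in vehicle. The summed signal of the 16 ran from 19413 to 23606 at 48 h and from 30127 to 32447 at 24 h, and no value was at 0. Cd14, the endotoxin co-receptor, averaged 10605 ± 991 at 48 h and 15658 ± 509 at 24 h, and C1qc, a complement C1q chain made by macrophages, 971 ± 138 and 1654 ± 158. Cd14 had the highest signal of the 16 and so weighs most in the sums, which were not computed without it. In bulk samples, fewer cells of a type and less RNA per cell cannot be told apart. Stellate markers had 1 higher and 2 lower of 17, a share near that of all genes (17.6% against 13.5%). Their sums were 5773 to 6215 at 48 h and 6987 to 8590 at 24 h. Without Lox the other 16 summed to 4977 to 5737 at 48 h and 4600 to 5568 at 24 h, so these sums overlapped. The other 2 calls were lost without single arrays: Col3a1, a fibrillar collagen (0.45), without array 1 of 48 h or 3 or 5 of 24 h (highest adjusted p 0.0639), and Lrat, which esterifies retinol (-2.29), without array 3 or 5 of 48 h or 1 or 2 of 24 h (highest 0.0873). Endothelial markers had 0 higher and 2 lower of 12 (16.7%, against 13.5% of all genes in either direction and 6.72% called lower). Their sums were 2052 to 3351 at 48 h and 3772 to 5095 at 24 h. Of the 2, Fcgr2b, an Fc receptor (-1.11), is also in the Kupffer list. Lyve1 lost its call without array 5 of 48 h (adjusted p = 0.0668) or array 2 of 24 h (adjusted p = 0.0562). Another Lyve1 probe set had -1.0 and was called (limma adjusted p = 0.00441). Without Fcgr2b the other 11 summed to 1594 to 2240 at 48 h and 2529 to 3077 at 24 h. The part of these markers in the other results was not tested.

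The 12 highest and 12 lowest called genes at 1 µM, among those whose groups did not overlap and whose higher mean lay above the median gene, were all called in vehicle in the same direction. Over all 137 genes called and at least 2-fold, 46 were not. Tsx had 2462, 2197, 2368, 2273 and 2543 at 48 h and 449, 391, 362, 397 and 522 at 24 h. The groups did not overlap, at 5.62-fold (log2 fold change 2.49 ± 0.12), against 2.71 ± 0.12 in vehicle. Tspan8, a tetraspanin, averaged 1019 ± 128 at 48 h and 217 ± 46.9 at 24 h, and Cox6a2, a cytochrome oxidase subunit, 3584 ± 127 and 1274 ± 149. Lox, the collagen cross-linking oxidase, had 478, 1065, 796, 782 and 706 at 48 h and 3022, 2404, 2852, 1965 and 2461 at 24 h. It was lower in every 48 h array, at -1.76 ± 0.23, against -2.02 ± 0.23 in vehicle.

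**Figure D3:**
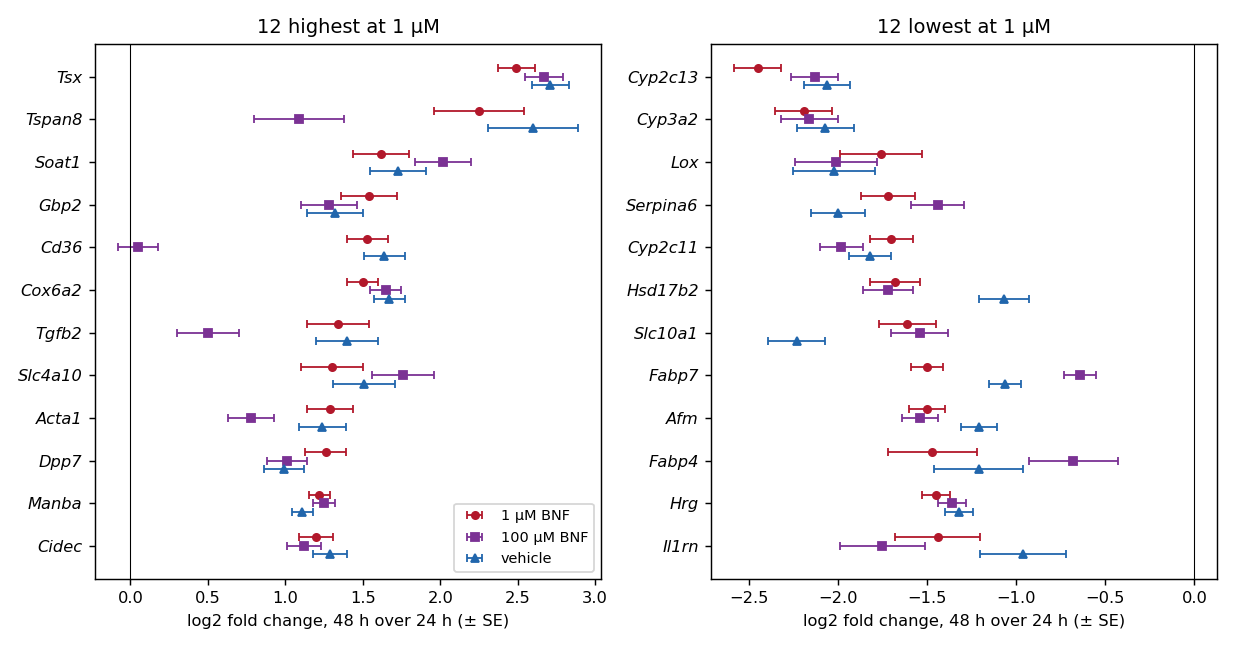
Log2 fold change of 48 h over 24 h (± SE) for the 12 highest and 12 lowest named genes at 1 µM BNF, with 100 µM BNF and vehicle beside them. Tsx lies at 2.49 at 1 µM and 2.71 in vehicle, and Cd36 at 1.53 at 1 µM but 0.05 at 100 µM.

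Across genes, the second day at 1 µM was set against the second day in vehicle, whose arrays it does not share. In vehicle 2450 genes were called, 1228 higher (8.64%) and 1222 lower (8.6%). Of the 1926 called at 1 µM, 1247 were also called in vehicle (64.7% of 1926 and 50.9% of 2450), 1243 in the same direction and 4 in opposite directions. The 4, named after their values were seen, were Copg1 (0.16 at 1 µM and -0.2 in vehicle), Rnf123 (0.26 and -0.25), Adgrb2 (1.32 and -1.18) and Meox1 (1.51 and -2.31). Their calls at 1 µM were not stable: Copg1 lost its call without array 1 of 24 h or array 3 of 48 h (highest adjusted p 0.0852), and Adgrb2 without array 5 of 48 h (adjusted p = 0.0564). Rnf123 lost its call without array 1, 2 or 4 of 24 h or 3 or 5 of 48 h (highest 0.096), and Meox1 without 8 of the 10 arrays, all but array 4 of 24 h and array 1 of 48 h (highest 0.105). Of the 137 genes called and at least 2-fold, 91 were called in vehicle in the same direction. Genes called at 1 µM in neither vehicle nor 100 µM numbered 391 (20.3% of 1926), and for 0 of these was the difference from vehicle called in limma (133 at an unadjusted p under 0.05).

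**Figure D4:**
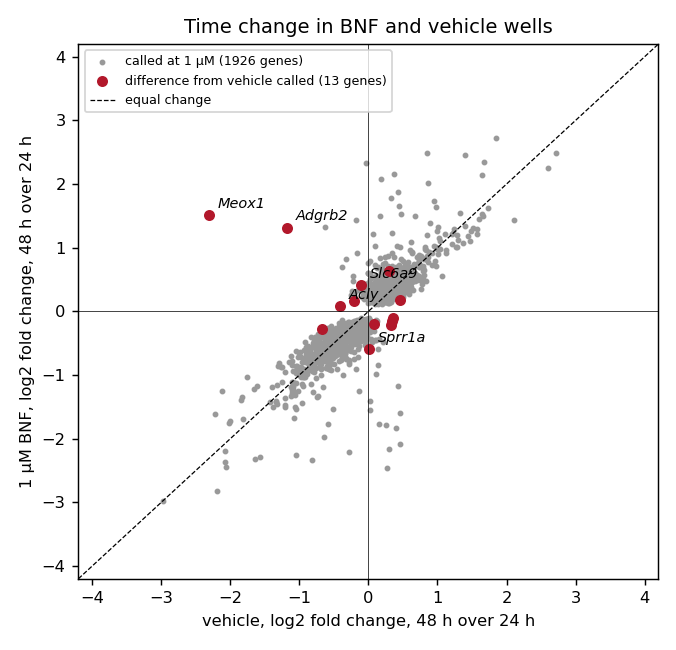
Log2 fold change of 48 h over 24 h at 1 µM BNF (vertical) against vehicle (horizontal) for the 1926 genes called at 1 µM (grey), with the 13 genes whose difference was called in red and a dashed line for equal change. Most grey points lie in the quadrants of equal sign. Of the 1926 genes 94.9% had the same sign in vehicle, against 65.6% of all genes tested.

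The time change itself differed between 1 µM and vehicle for 13 genes (0.0914%), 7 more positive and 6 more negative at 1 µM, with 1319 genes at an unadjusted p under 0.05. Slc6a9, a glycine transporter, had 8144, 6873, 7025, 7117 and 7028 at 48 h and 5104, 4713, 5887, 5758 and 5882 at 24 h with BNF. It was higher in every 48 h array, at a log2 fold change of 0.41 ± 0.06, against -0.11 ± 0.06 in vehicle, where it averaged 6319 ± 152 at 48 h and 6835 ± 393 at 24 h. The difference was 0.52 (95% interval 0.36 to 0.68, adjusted p = 0.00465).

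Acly, the ATP citrate lyase that supplies acetyl-CoA for lipid synthesis, had 9450, 9561, 11245, 9949 and 9850 at 48 h and 9168, 9739, 9569, 9154 and 9550 at 24 h with BNF. These arrays overlapped, and the log2 fold change of 0.08 was not called. In vehicle Acly averaged 12783 ± 1047 at 48 h and 17008 ± 991 at 24 h, a log2 fold change of -0.41, and the difference was 0.5 (95% interval 0.33 to 0.67, adjusted p = 0.0115). Srebf1 and Fasn, a regulator and an enzyme of lipid synthesis named after their values were seen, had log2 fold changes of 0.58 and 0.87 with BNF and 0.01 and 0.28 in vehicle, and neither difference was called (adjusted p = 0.0957 and 0.232). On another probe set Srebf1 had 0.67 with BNF and was called, while Fasn had 0.27 and was not (limma adjusted p = 0.502).

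The other 11 genes were Itih1 (0.39), Copg1 (0.36) and Slc41a2 (0.33), more positive at 1 µM, and Sprr1a (-0.6), Pdrg1 (-0.55), Fgfr1op2 (-0.49), Sltm (-0.46), Arfrp1 (-0.27) and Pdcl3 (-0.27), more negative, with Adgrb2 (2.5) and Meox1 (3.82) at mean signals of percentile 5.99 and 1.44. Each of these 11 lost its call without any 1 of 11 to 16 of the 20 arrays in this comparison, with adjusted p up to 0.104 for Sltm. Slc6a9 and Acly were still called without each array in turn (highest adjusted p 0.018 and 0.0366), but Slc6a9 was not with its probe sets averaged (adjusted p = 0.622), and with arrays centred on their median 0 of the 13 were called (921 genes at an unadjusted p under 0.05).

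At 100 µM 2438 genes were called, 1264 higher (8.89%) and 1174 lower (8.26%), a split of 51.8% higher that became 72.2% of 2080 with arrays centred on their median. Of the 1926 genes called at 1 µM, 1313 were also called at 100 µM (68.2% of 1926 and 53.9% of 2438), 1306 in the same direction. The 7 called in opposite directions, named after their values were seen, were Akr1b8, Gclc, Bcap31 (-0.15 at 1 µM and 0.13 at 100 µM), C4bpa (0.26 and -0.29), Glrx2 (0.19 and -0.2), St6galnac4 (0.19 and -0.17) and Surf1 (-0.19 and 0.11). With arrays centred on their median, Bcap31, C4bpa, Glrx2, St6galnac4 and Surf1 lost the 1 µM call (adjusted p 0.231, 0.113, 0.0666, 0.12 and 0.0606). Of these, C4bpa lost its 1 µM call without 7 of the 10 arrays taken singly (all but arrays 1 and 2 of 24 h and 5 of 48 h, highest adjusted p 0.133) and Gclc without 5 (arrays 3, 4 and 5 of 24 h and 1 and 4 of 48 h, highest adjusted p 0.166). With all probe sets of a gene averaged, St6galnac4 turned to -0.07 at 1 µM and was not called.

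The difference of the time change between 1 µM and 100 µM was called for 50 genes (0.352%). Cd36 rose at 1 µM as above and had a log2 fold change of 0.05 at 100 µM, a difference of 1.48 (adjusted p = 9.8e-06). Crp, C-reactive protein, had 5199, 6151, 6393, 5972 and 5634 at 48 h and 5497, 4757, 5553, 3968 and 4804 at 24 h at 1 µM. These arrays overlapped, with a log2 fold change of 0.26 that was not called, against -1.35 at 100 µM and 0.65 in vehicle (difference between doses 1.61, adjusted p = 2.32e-06). Fabp7, a fatty acid-binding protein, averaged 7010 ± 468 at 48 h and 19917 ± 2444 at 24 h at 1 µM, a log2 fold change of -1.5 against -0.64 at 100 µM. The transcriptional co-regulator Cited2 fell at 1 µM (-0.7) and had 0.25 at 100 µM, a difference of -0.95. Fabp1, the liver fatty acid-binding protein, had -0.47 at 1 µM and -1.45 at 100 µM, and Cd9, a tetraspanin, -0.43 and -1.42. Akr1b8, an aldo-keto reductase, fell at 1 µM (-0.41 ± 0.07) and rose at 100 µM (0.45 ± 0.07), and Gclc, which makes glutathione's precursor, had -0.19 and 0.33.

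**Figure D5:**
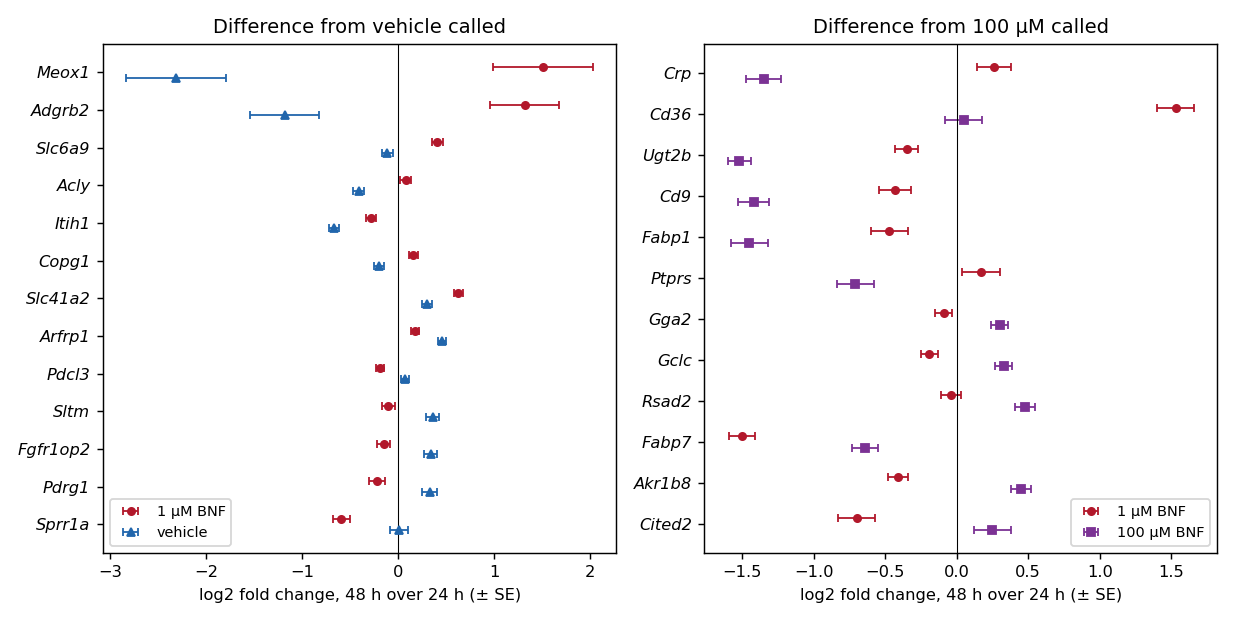
Log2 fold change of 48 h over 24 h (± SE) for the 13 genes whose time change differed between 1 µM BNF and vehicle (left) and for 12 of those that differed between 1 µM and 100 µM (right). Acly lies at 0.08 at 1 µM and -0.41 in vehicle, and Crp at 0.26 at 1 µM and -1.35 at 100 µM.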

How the data were processed

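RNA of 30 hepatocyte cultures was measured on Affymetrix rat arrays. Each deposited file gives 1 linear intensity per probe set. The submitters' processing notes name MAS5, without a version. Across arrays the mean intensity trimmed by 2% at each end was 1500.5 to 1500.6, so arrays had been scaled to 1 level before deposit, which hides any shift common to the majority of genes. Other upstream steps are not given in the sources used.

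Of 31099 probe sets, 57 controls, 436 with several gene symbols and 9780 with none were left out. Where a gene had several probe sets, the brightest by mean log2 signal over the 30 arrays stood for it, giving 14217 genes, 4525 of them with several probe sets. Symbols were updated by gene number to the RefSeq gene table (GRCr8), which 20758 of 20826 probe sets with 1 symbol matched. Tests used log2 of the deposited intensity, with nothing added and no second normalization.

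One limma model (limma 3.58.1, R 4.3.3) used all 30 arrays, with 1 mean for each group, 24 residual degrees of freedom and a mean-variance trend in eBayes. Contrasts were 48 minus 24 h at 1 µM, at 100 µM and in vehicle, and the 1 µM contrast minus each of the other 2. The Benjamini-Hochberg adjustment ran over the 14217 genes. SE is that of the log2 fold change, and intervals are 95% and unadjusted. Replicate numbers follow sample order and pair nothing. No pair of arrays was identical (0). The number of arrays limits precision, and the median SD of a gene was 0.193 log2 units at 48 h and 0.192 at 24 h.

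Named genes were all AhR targets, the 12 highest and 12 lowest called genes without overlap of the groups and with the higher mean above the median gene, up to 4 called members with the smallest adjusted p of each other list, and 6 in each direction for each difference. Outside this rule, and named after their values were seen, are Cyp2a1, Cyp2c12, Cyp2c7, Srebf1, Fasn, Adgrb2, Meox1 and the genes called in opposite directions. The members and lists were chosen with earlier results of these data known. Of the 156 named genes, 1 (Cyp2c13) rests on a probe set shared with other genes. The model was tested on simulated data with known changes, in 10 rounds. It called 47.75% of changes of 0.5 log2 units, 72.611% of those of 1 and 88.58% of those of 2. Of its calls, 6.08% were on genes given no change. Fewer genes were changed in each round than were called in the data. Alternatives were median centring, quantile normalization, a filter on low signals, a constant of 50, fits of the groups alone, no trend, averaged probe sets, array number as covariate, and each array left out.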

Additional observations from a re-analysis of the deposited data

Results flagged for a closer look

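In a group of 5 arrays, an array was listed where its gap to the nearest other, on the log2 scale, exceeded 0.71 of the group's range. Of 312 groups tested, 21 had such an array, and chance alone gives about 1 in 20. At 48 h with 1 µM BNF, array 1 was lowest for Gys2 (3550), Sesn1 (965), Meox1 (18.9), Bcap31 (14447) and Fasn (1544), and highest for Apoa2 (11778) and Slc6a9 (8144). Array 2 of that group was lowest for Soat1 (1237) and Gga2 (3494) and highest for Gsta3 (15937) and Cyp2e1 (2786). Array 3 was lowest for Cyp2c11 (951) and highest for Sult1c2 (878), Fads1 (998) and Sltm (5752), and array 5 was highest for Adgrb2 (163). At 24 h, array 1 was lowest for Glud1 (24106), array 2 for Hsph1 (4445) and Mcm7 (1053), and array 4 for Lyve1 (237), while array 4 was highest for Cyp1b1 (956).

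The time change at 1 µM minus that in vehicle, on the log2 scale, was called in limma for 13 genes. It was positive for Meox1 (3.82), Adgrb2 (2.5), Slc6a9 (0.52), Acly (0.5), Itih1 (0.39), Copg1 (0.36) and Slc41a2 (0.33). It was negative for Sprr1a (-0.6), Pdrg1 (-0.55), Fgfr1op2 (-0.49), Sltm (-0.46), Arfrp1 (-0.27) and Pdcl3 (-0.27).

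The time change at 1 µM minus that at 100 µM was positive for Crp (1.61), Cd36 (1.48), Ugt2b (1.17), Cd9 (0.98), Fabp1 (0.98) and Ptprs (0.88). It was negative for Cited2 (-0.95), Fabp7 (-0.86), Akr1b8 (-0.86), Rsad2 (-0.52), Gclc (-0.51) and Gga2 (-0.39). These 12 are those named of the 50 called.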

How the results depend on the processing

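With arrays centred on their median, calls at 1 µM numbered 1236, those for the difference from vehicle 0 (921 at an unadjusted p under 0.05) and those for the difference from 100 µM 16. The difference from vehicle had 5 calls with groups compared alone, 4 without a trend, 1 with probe sets averaged and 23 with quantile normalization. Leaving out 1 array gave 1643 to 1942 calls at 1 µM, 1909 to 2529 in vehicle, 2057 to 2310 at 100 µM, 2 to 22 for the difference from vehicle and 41 to 57 for that from 100 µM. No paired analysis was possible because replicate numbers follow sample order only. Ahrr, never called, turned positive with a constant of 50 (0.0047) and without array 2 of 24 h (0.0508), array 2 of 48 h (0.0301) or array 5 of 48 h (0.3613), and ranged down to -0.4297 without array 4 of 48 h. With probe sets averaged, signs turned for Arfrp1 (0.028) and Pdcl3 (0.1484) against vehicle, Ptprs (-0.0426) against 100 µM, and Rnf123 (-0.0186) and St6galnac4 (-0.0658) at 1 µM. Another probe set had the other sign, not called, for Tap1 (-0.36), Anxa3 (-0.25), Rora (0.08), Klf9 (0.03), Fgfr1op2 (0.19), Sltm (0.18), Pdcl3 (0.36), Copg1 (-0.59), Gga2 (0.03), Ptprs (-0.38 and -1.21), Rnf123 (-0.41) and St6galnac4 (-0.18 and -0.21). The named genes called at 1 µM had 46 other probe sets. Of these, 22 were called in the same direction, 15 had the same sign without a call and 9 the other sign without a call. Over single genes and alternatives, 2800 values kept direction and side of the threshold, 317 kept direction but lost the call, and 23 reversed. The cause was not tested.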
